A study of Mus musculus with 4 samples.

Results

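Of 868 probes on the array that carry a curated RefSeq noncoding RNA accession, 601 were well above background before or after 16 h of CpG ODN stimulation, and 127 of these had measured levels more than 2-fold apart between 16 h and 0 h. In 55 of them the level was higher at 16 h and in 72 it was lower. With another background correction (normexp, which shrinks differences of dim probes) the counts were 24 and 23, so neither the counts nor the larger number of lower probes held. The lncRNA and mRNA levels were measured in RAW264.7, a mouse macrophage-like cell line, treated with 1 µM ODN1826, a synthetic oligonucleotide with unmethylated CpG motifs that is a ligand of TLR9. Total RNA was taken at 0, 4, 8 and 16 h, labelled with Cy3 and hybridized to 4 Agilent arrays, 1 for each time. The treatment label is the same on all 4 samples, and the 0 h sample marks the start of stimulation. None of the arrays holds cells kept for 4, 8 or 16 h without ODN1826, so the time in culture and the treatment cannot be told apart. With 1 array per group there is no replicate check, neither a test nor a p-value can be given. The mRNA probes carry no gene names here, so the macrophage label was not checked against marker genes.

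The level of a probe is its log2 intensity, averaged over its spots, from which the 75th percentile over all probes on the same array was subtracted. The percentile stood at intensities of 531, 503, 493 and 440 in time order, and 70.9% to 73.3% of all 97836 probes had all spots well above background. A probe was counted where all its spots were well above background at 0 h or 16 h, which held for 601 of the 868, and where its 16 h level differed from the 0 h level by over 1 on the log2 scale. The other 267 passed this filter on neither array. The probes were thus selected on the difference between the 16 h and 0 h arrays, and that difference is given as a description. The 55 higher probes are 9.15% of the 601 and the 72 lower ones are 12.0%. Over all 73438 probes of the array that passed the same filter, 9.5% were higher and 10.7% were lower. Among the lncRNA probes of the array the shares were 8.63% and 10.7%, and among the mRNA probes 10.7% and 10.5%. The noncoding RefSeq probes thus lay close to the array as a whole in both directions. Because the RNA comes from bulk cultures, fewer cells that express a transcript and less of it per cell cannot be told apart.

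Long noncoding RNAs are transcribed much like mRNAs and are often spliced and polyadenylated, but they are not translated into a known protein. Some act in the nucleus on chromatin or on a neighbouring gene, some bind proteins or microRNAs in the cytoplasm, and others are mainly the precursors of small RNAs. In macrophages, Toll-like receptor signalling changes the transcription of many noncoding loci beside its effects on cytokine genes. The RefSeq table matched 120 of the 127 probes to 119 genes, 111 of them with the same accession version and 9 with another version, while 7 probes keep their accession as their name.

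Lncppara, the lower probe with the best known products, is the host transcript of microRNAs of the let-7 family, so their mature sequences are shown. They are taken from RefSeq, and the capitals mark the seed, bases 2 to 8, with which a microRNA pairs to its targets. The arrays measured the host transcript and not these microRNAs.
mmu-let-7c-5p: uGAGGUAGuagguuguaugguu
mmu-let-7b-5p: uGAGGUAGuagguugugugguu
mmu-let-7c-2-3p: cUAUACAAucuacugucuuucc
mmu-let-7b-3p: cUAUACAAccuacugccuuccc
The 5p strands of both microRNAs share the let-7 seed, and the 3p strands share another seed between them.

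The next sequences are promoters of 3 probes that were higher and 3 that were lower at 16 h, chosen among the genes described below. Each holds 250 bases before and 50 bases after the annotated start in RefSeq (build GRCm38.p6) and is written 5′ to 3′ on the strand of the gene. Capitals mark a match to a transcription factor motif on either strand, and all letters are lower case where none of the motifs searched was found.
1700112J05Rik, chr5:77018814-77019113, minus strand, interferon-stimulated response element (ISRE) in capitals: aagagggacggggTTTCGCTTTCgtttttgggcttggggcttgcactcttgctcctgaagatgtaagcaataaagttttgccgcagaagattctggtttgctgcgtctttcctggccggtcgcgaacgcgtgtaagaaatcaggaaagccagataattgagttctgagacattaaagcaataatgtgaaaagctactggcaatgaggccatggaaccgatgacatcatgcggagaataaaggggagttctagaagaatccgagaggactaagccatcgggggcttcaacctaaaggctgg
Pldi, chr10:60938083-60938382, minus strand: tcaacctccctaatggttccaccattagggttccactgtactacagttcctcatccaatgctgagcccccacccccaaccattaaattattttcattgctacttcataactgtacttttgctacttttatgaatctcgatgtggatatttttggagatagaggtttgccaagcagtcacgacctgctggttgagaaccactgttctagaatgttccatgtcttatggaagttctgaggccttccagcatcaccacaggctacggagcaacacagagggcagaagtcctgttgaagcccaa
4930579K19Rik, chr9:98563562-98563861, minus strand, STAT motif in capitals: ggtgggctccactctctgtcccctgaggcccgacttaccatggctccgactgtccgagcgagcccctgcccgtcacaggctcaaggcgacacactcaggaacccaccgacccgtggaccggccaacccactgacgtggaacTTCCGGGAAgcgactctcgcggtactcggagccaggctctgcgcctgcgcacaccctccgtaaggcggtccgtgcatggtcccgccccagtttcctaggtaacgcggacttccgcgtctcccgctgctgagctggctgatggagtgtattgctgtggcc
Lncppara, chr15:85703523-85703822, plus strand, NF-kB motif in capitals: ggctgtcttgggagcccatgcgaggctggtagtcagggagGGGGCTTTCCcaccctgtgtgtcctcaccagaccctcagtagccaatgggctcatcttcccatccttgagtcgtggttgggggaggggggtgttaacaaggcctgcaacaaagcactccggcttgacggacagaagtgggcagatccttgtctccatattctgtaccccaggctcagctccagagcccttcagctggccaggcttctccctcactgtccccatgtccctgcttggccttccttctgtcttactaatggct
D930048N14Rik, chr11:51650704-51651003, plus strand, AP-1 motif in capitals: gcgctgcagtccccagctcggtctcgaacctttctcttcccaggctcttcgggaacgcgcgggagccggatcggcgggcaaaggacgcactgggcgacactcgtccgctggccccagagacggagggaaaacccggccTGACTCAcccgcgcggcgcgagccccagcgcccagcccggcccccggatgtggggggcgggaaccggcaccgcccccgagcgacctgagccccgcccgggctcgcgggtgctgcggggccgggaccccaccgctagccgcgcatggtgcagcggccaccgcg
C630043F03Rik, chr4:72200994-72201293, plus strand: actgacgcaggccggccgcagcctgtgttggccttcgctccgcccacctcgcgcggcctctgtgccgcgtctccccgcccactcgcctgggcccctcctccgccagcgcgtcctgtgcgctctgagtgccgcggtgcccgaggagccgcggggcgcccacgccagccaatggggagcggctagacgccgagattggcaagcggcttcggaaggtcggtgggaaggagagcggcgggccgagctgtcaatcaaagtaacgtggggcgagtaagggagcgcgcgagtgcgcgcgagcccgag
A match describes the letters in this window and is not evidence of binding.

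The 55 higher probes had 16 h differences from 1.01 to 4.03 on the log2 scale, with a median of 1.56. Past 4-fold were 11 that were above background on both arrays and 2 by their bound, and past 8-fold were Pldi, Slfn10-ps and, by its bound, 1700112J05Rik. Of these only Slfn10-ps, AV051173 and Bambi-ps1 stayed past 4-fold under normexp, at 2.95, 2.32 and 2.02, and none stayed past 8-fold. The probe with the largest difference was 1700112J05Rik, a lncRNA of chromosome 5 next to Arl9 whose function is not described in the table. Its level was -5.54, -4.11, -2.08 and -1.52 at 0, 4, 8 and 16 h, higher on each later array. At 0 h neither spot was well above background, so the 16 h level was at least 14.3-fold higher by its bound. Under normexp its log2 difference was smaller, at 1.78. Pldi, a mouse transcript known mainly from the testis, is one of the transcripts the study names. The level of Pldi was -4.85, -2.48, -2.10 and -1.63 at 0, 4, 8 and 16 h. Its 16 h level was 9.36-fold higher than at 0 h, a log2 difference of 3.23 ± 0.30, and 1.67 under normexp. Here and below, ± is the error of the scanner's model for the spots and not a spread between samples.

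Several of the largest differences came from transcripts that resemble protein-coding families. Slfn10-ps belongs to the Schlafen genes, many of which respond to interferon, and had levels of 0.48, 2.83, 3.05 and 3.65 at 0, 4, 8 and 16 h. Its 16 h difference was 3.17 ± 0.20, and most of that was already present at 4 h. H2-K2 is a pseudogene of the class I major histocompatibility genes, whose products present peptides to T cells. The level of H2-K2 was -4.93, -3.07, -3.17 and -2.19, a 16 h difference of 2.74 ± 0.32. Its probe was dim, with an intensity of 17.4 at 0 h and 96.2 at 16 h, and under normexp the difference was 1.21. Bambi-ps1 is a pseudogene of Bambi, which codes for a decoy receptor of the TGF-beta family. The level of Bambi-ps1 was 2.44, 4.52, 3.84 and 4.67 at 0, 4, 8 and 16 h, a 16 h difference of 2.23 ± 0.14 over 2 spots that gave 2.19 and 2.26. All 3 were past 2-fold at each time point. Probes for pseudogenes can also bind the RNA of the genes they resemble, and the part of such binding in these values was not tested.

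A second set of higher probes stood near their 0 h level at 4 h and differed later. 4930579K19Rik, next to Copb2, had levels of -4.66, -4.50, -3.07 and -1.94 at 0, 4, 8 and 16 h, so that its 4 h level lay within 0.17 of 0 h and its 16 h difference was 2.72 ± 0.30. Trmt61b is the symbol that the table gives to a noncoding transcript of chromosome 17, next to Spdya. The levels of this probe were -3.48, -3.15, -2.08 and -1.03, a difference of 2.45 ± 0.16 at 16 h, with 2.24 and 2.65 for its 2 spots. Gm15850, next to the kinesin gene Kif21b, had levels of -2.84, -2.53, -0.97 and -0.64 and a 16 h difference of 2.20 ± 0.21. In these 3 the step between 4 h and 8 h was over 1. Their 16 h differences were smaller under normexp, at 1.17 for 4930579K19Rik, 1.60 for Trmt61b and 1.535 for Gm15850. AV051173, next to the antioxidant gene Prdx1, was past 2-fold already at 4 h and was highest at 8 h, with levels of -0.62, 0.82, 2.0 and 1.80.

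In 12 higher probes no spot was well above background at 0 h, and their 16 h levels were at least 1.95-fold to at least 14.3-fold higher. Beside 1700112J05Rik, the largest bounds belonged to 1810019D21Rik next to Esrp2, 1700012D16Rik next to St6galnac3 and 3930402G23Rik next to the insulin receptor substrate gene Irs2. 1810019D21Rik was at -5.82, -5.63, -4.05 and -3.26 at 0, 4, 8 and 16 h, and was at least 4.27-fold higher at 16 h. 1700012D16Rik was at least 3.54-fold and 3930402G23Rik at least 3.11-fold higher. The last of these was not well above background at 4 h or 8 h either. One further probe of this kind, NR_036629.1, was picked out after its values were seen. One of its spots at 0 h was marked as an outlier and left out, and its 16 h level was at least 2.19-fold higher. Under normexp 1810019D21Rik, 1700012D16Rik and 3930402G23Rik had differences of 0.76, 0.77 and 0.61, within 2-fold.

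**Figure D1:**
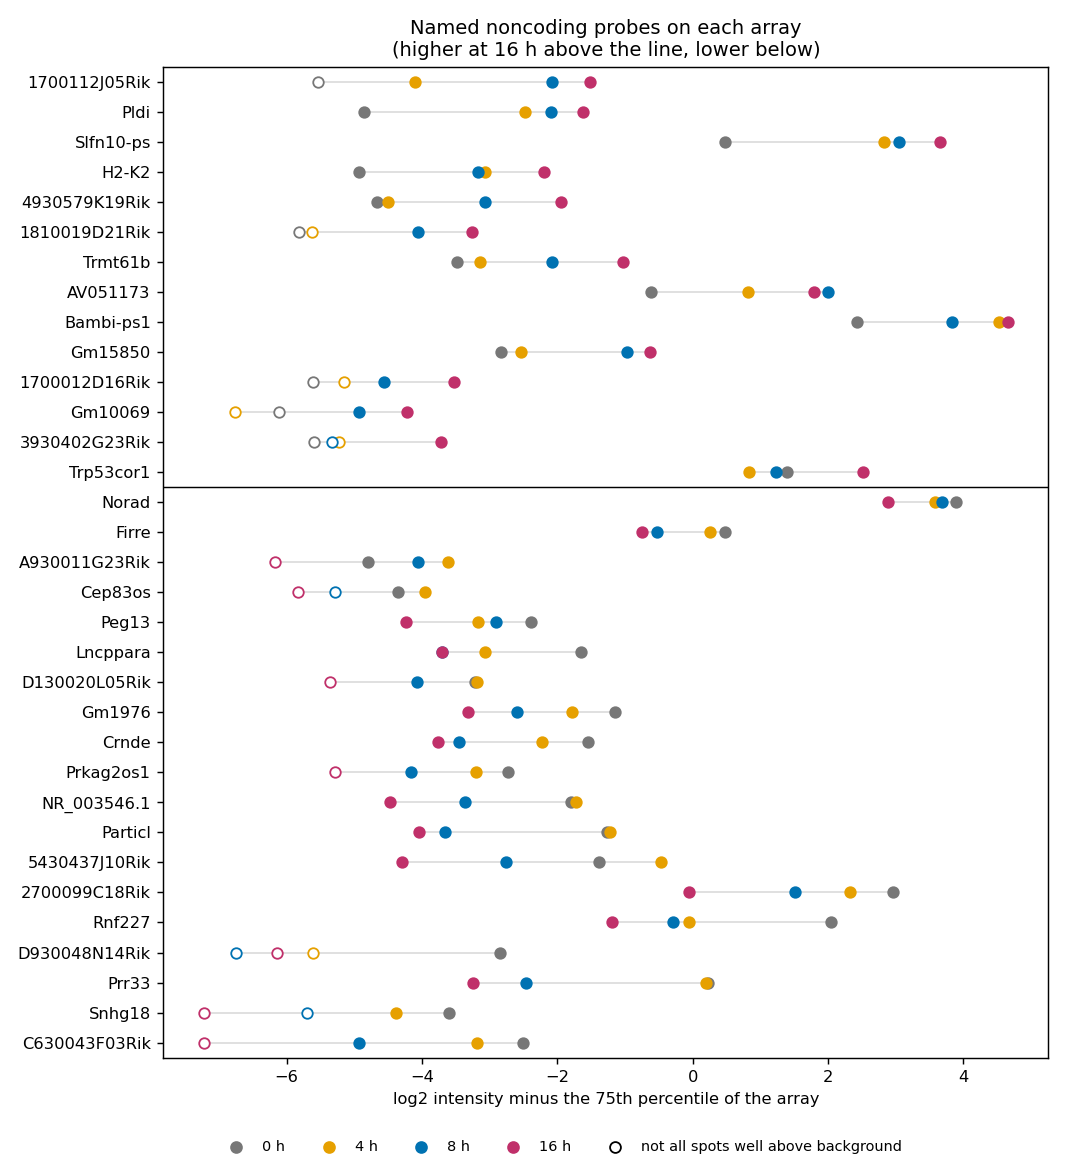
Level of the named probes on each array, as log2 intensity relative to that array's 75th percentile (horizontal axis), with 1 row per probe and 1 colour per time point. Open circles mark arrays where not all spots of the probe were well above background. Slfn10-ps and Bambi-ps1 had most of their difference by 4 h, while Prr33 and Particl stood at their 0 h level at 4 h and lower at 8 h and 16 h.

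The 72 lower probes had measured 16 h differences from -4.71 to -1.003, with a median of -1.53, values at background included. Past 4-fold were 12 that were above background on both arrays and 3 by their bound, and past 8-fold were Prr33, Rnf227 and 2700099C18Rik. Of these only Prr33, Rnf227 and 2700099C18Rik stayed past 4-fold under normexp, at -2.405, -2.93 and -2.92, and none stayed past 8-fold. C630043F03Rik, next to the transcriptional corepressor gene Tle1, had levels of -2.51, -3.18, -4.94 and -7.23 at 0, 4, 8 and 16 h. Each array was below the one before it. As the 16 h spot was not well above background, the level at 16 h was at least 5.83-fold lower by its bound. Under normexp its 16 h difference was smaller, at -1.25. Prr33, a transcript next to the muscle troponin gene Tnnt3, was at 0.23, 0.20, -2.46 and -3.25 at 0, 4, 8 and 16 h. It was well above background on all 4 arrays, and its 16 h difference was -3.48 ± 0.23, or 11.2-fold lower. Rnf227, which the table places next to the chromatin remodeller gene Chd3, was lower early, with levels of 2.05, -0.06, -0.29 and -1.19. The difference at 16 h was -3.24 ± 0.14, and its 2 spots gave -3.26 and -3.23.

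2700099C18Rik and Gm1976 lie on chromosome 17 and share the methyltransferase gene Mettl4 as their nearest protein-coding neighbour. The level of 2700099C18Rik was 2.97, 2.33, 1.52 and -0.05 at 0, 4, 8 and 16 h, which is 8.08-fold lower at 16 h. A brighter second probe of the same gene, typed as a transcribed pseudogene, had a 16 h difference of 0.21. Gm1976 had levels of -1.15, -1.78, -2.60 and -3.31 and was 4.49-fold lower. Both were lower on each successive array. The normexp differences at 16 h were -2.92 for 2700099C18Rik and -1.34 for Gm1976. D130020L05Rik, represented by 2 probes, and Kif4-ps also share a neighbour, the phosphatase subunit gene Ppp4r3a on chromosome 12. The 2 probes of D130020L05Rik were at least 3.59-fold and at least 2.79-fold lower at 16 h, and under normexp the first of them was at -0.56. Kif4-ps, named here after its values were seen, had a difference of -1.02.

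Particl is a lncRNA that is transcribed from the promoter region of Mat2a, the gene of a methionine adenosyltransferase. The level of Particl was -1.27 at 0 h and -1.22 at 4 h, then -3.66 at 8 h and -4.05 at 16 h, so that the 2 early and the 2 late arrays lay apart. Its 16 h difference was -2.78 ± 0.27. 5430437J10Rik, next to Ptger4, which codes for a prostaglandin E2 receptor, was higher at 4 h and then lower, with levels of -1.39, -0.46, -2.75 and -4.29. Crnde, a lncRNA best known from colorectal tumours and next to the homeobox gene Irx5, had levels of -1.55, -2.23, -3.45 and -3.76 and a 16 h difference of -2.21 ± 0.24. The probe NR_003546.1, which has no gene in the table, was at -1.80, -1.73, -3.36 and -4.48. With normexp the 16 h differences of Particl, 5430437J10Rik, Crnde and NR_003546.1 were smaller, at -1.38, -1.43, -1.17 and -1.12.

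Of the 72 lower probes, 27 had no spot well above background at 16 h, and 4930433N12Rik had 1 of 2 spots above it. Bounds for 24 of the 27 ran from at least 1.03-fold to at least 5.83-fold lower. For Serpina3h, E130006D01Rik and Platr14 no fold is given, because the bound is not above 1. Prkag2os1, antisense to the AMP kinase subunit gene Prkag2, was at -2.73, -3.20, -4.17 and -5.29 and was at least 5.02-fold lower. D930048N14Rik, next to N4bp3, was above background at 0 h alone, with a level of -2.85, and was at least 4.62-fold lower at 16 h. Under normexp these 2 had differences of -0.71 and -0.80, within 2-fold.

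The members that lay nearest to the 2-fold limit show how the limit cut the list. A330069E16Rik and 1700025N23Rik, just inside, had 16 h differences of 1.01 and 1.06, and Gm18853 and 5430402O13Rik, just outside, had 0.96 and 0.93. On the lower side Norad had -1.003 and Serpina3h a measured -1.01 that rests on a 16 h signal at background, and 2610020C07Rik and 2810025M15Rik, just outside, had -0.995 and -0.993. Under normexp A330069E16Rik, 1700025N23Rik and Serpina3h were within 2-fold, at 0.58, 0.53 and 0.068. The gaps at the limit are smaller than the scanner error of most probes, which had a median of 0.21 for the higher and 0.24 for the lower probes.

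Among the higher probes the median differences from 0 h were 0.38, 0.96 and 1.56 at the 3 later times, and among the lower ones they were -0.38, -0.98 and -1.53. Over all 601 tested noncoding probes the medians were 0.05, 0.06 and 0.07. The difference was largest at 16 h in 46 of the 55 higher and 63 of the 72 lower probes, and the levels were in time order over all 4 arrays in 21 and 31. In 15 higher and 20 lower probes the 4 h difference had the opposite sign. All 3 differences share the 0 h array that also chose the probes, so the growth of the medians to 16 h is in part fixed by that choice.

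By 4 h, 14 higher probes (25.5%) and 12 lower ones (16.7%) were past 2-fold in the direction they had at 16 h. Over the 601 probes, 5.82% were past 2-fold higher and 5.32% lower at 4 h, and over all probes of the array 4.96% and 5.39%. At 8 h the counts were 26 (47.3%) and 36 (50%), beside 5.66% and 8.49% of the 601 and 6.2% and 7.48% of all probes. These differences use the 0 h array that also chose the probes, and the 601 include the 127. Larger shares among the 127 are thus in part fixed by that choice. The early group among the higher probes held 13 that were past 2-fold at 4, 8 and 16 h, among them Pldi, Slfn10-ps, H2-K2, AV051173 and Bambi-ps1. Another 13 were past 2-fold at 8 h and 16 h, 28 at 16 h alone and 1, 4930474N09Rik, at 4 h and 16 h. Among the lower probes 12 were past 2-fold at all 3 times, among them Rnf227, Lncppara and D930048N14Rik. A further 24 were past it at 8 h and 16 h and 35 at 16 h alone.

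A few probes differed most at an early time. Gm10941, 4930474N09Rik and Rab11fip4os1 were higher at 16 h but differed most at 4 h, by 2.71, 2.05 and 1.57, and Gm10825 was lowest at 4 h, with a difference of -2.13 against -1.23 at 16 h. These 4 were singled out after their values were seen. A930011G23Rik, next to Rasgef1b, was the 1 member with a measured difference past 2-fold the other way at 4 h, with levels of -4.79, -3.61, -4.07 and -6.17. It was higher by 1.18 at 4 h and lower by at least 1.20-fold at 16 h, where it was not well above background and where normexp gave 0.035.

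**Figure D2:**
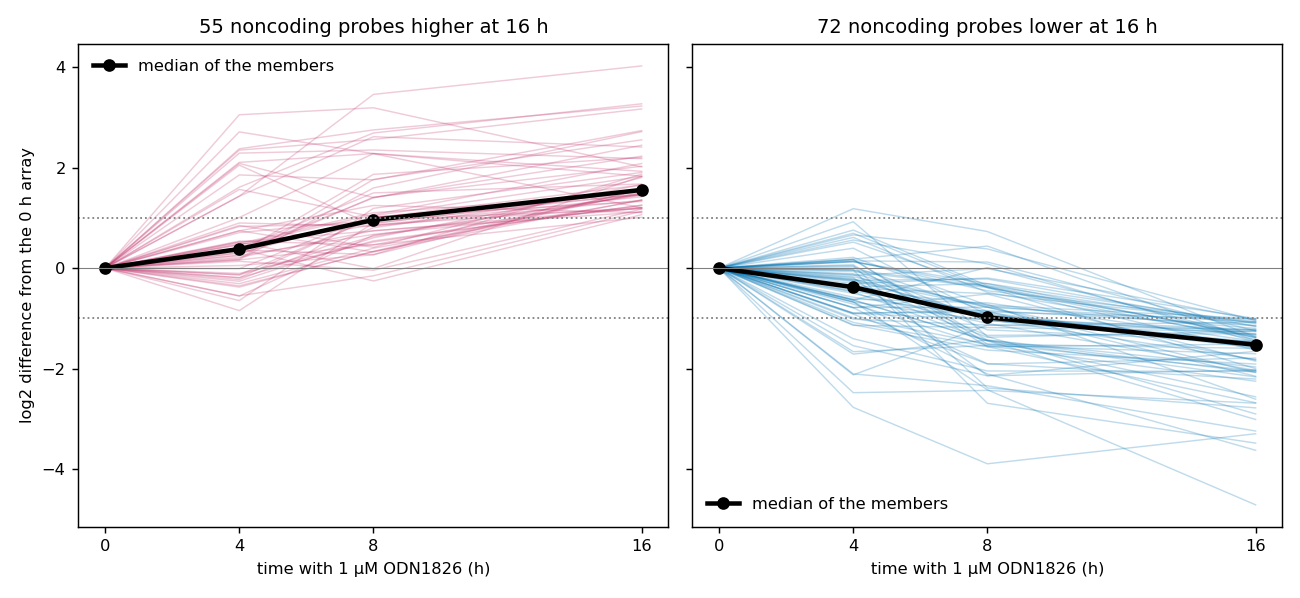
Difference from the 0 h array on the log2 scale (vertical axis) against hours with 1 µM ODN1826 (horizontal axis) for the 55 probes higher (left) and the 72 lower (right) at 16 h. Thin lines are probes, the thick line with points is their median, and dotted lines mark 2-fold. The medians reach 1.56 and -1.53 at 16 h, and 15 higher and 20 lower probes lay on the other side of 0 at 4 h.

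The step between the 4 h and the 8 h arrays was not used to choose the probes. In 42 of the 55 higher probes (76.4%) the 8 h level was above the 4 h level, where 49.6% of the 601 tested noncoding probes and 53.5% of all probes had it above. In 58 of the 72 lower probes (80.6%) it was below, beside 50.4% and 46.5%. The median step was 0.53 for the higher and -0.54 for the lower probes, against -0.01 for the 601. A step of over 2-fold in the direction of the 16 h difference was seen in 17 higher probes (30.9%) and 18 lower ones (25%), where 3.33% of the 601 stepped up and 5.32% stepped down that far. Over all probes these shares were 3.97% and 4.49%. The 601 include the 127 themselves. In the opposite direction 1 probe stepped by over 2-fold, 4930474N09Rik, by -1.20.

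Among the probes well above background at both 4 h and 8 h, 32 of 42 higher ones stepped up and 45 of 54 lower ones stepped down. The largest steps up among these belonged to 1700112J05Rik, by 2.03, and Selenok-ps1, by 1.75, the latter named after its values were seen. Gm10069, next to the protease inhibitor gene Pzp, was not well above background at 0 h or 4 h and then had levels of -4.93 and -4.22. The 16 h level was at least 2.21-fold higher. Under normexp its 16 h difference was 0.53. The largest steps down were those of Prr33, by -2.65, and Particl, by -2.43. Between 8 h and 16 h the medians were 0.66 and -0.70, but that step shares the 16 h array with the choice of the probes.

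**Figure D3:**
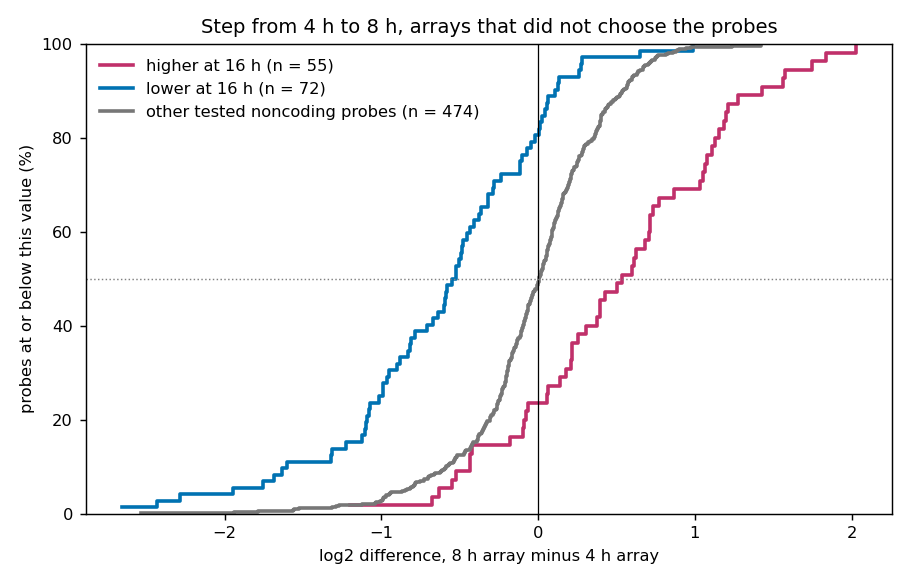
Cumulative share of probes (vertical axis, percent) against the log2 difference between the 8 h and the 4 h array (horizontal axis), for the 55 probes higher at 16 h, the 72 lower and the other 474 tested noncoding probes. The curves of the higher and lower probes lie to the right and left of that of the others, with medians of 0.53 and -0.54.

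Known lncRNAs were looked up in lists by role. Of their 32 tested probes, each counted once, 2 (6.25%) were higher and 6 (18.8%) lower, beside 9.15% and 12.0% of all tested noncoding probes. The lists are short, so 1 probe weighs heavily in each share. Of 7 tested probes for lncRNAs with a known part in immune cells, 0 were higher (9.15% over all tested noncoding probes) and 2 were lower (12.0%), with a median of -0.13 against 0.07 over all. Firre is an X-linked lncRNA that stays in the nucleus and binds chromatin. It is also among the transcripts the study names, but the study's text does so only in citing earlier work on macrophages. The level of Firre was 0.47, 0.26, -0.53 and -0.75 at 0, 4, 8 and 16 h, a 16 h difference of -1.22 ± 0.14, with the early arrays above the late ones, and -0.986 under normexp. Lncppara, the let-7 host next to the lipid metabolism regulator Ppara, was at -1.66, -3.06, -3.71 and -3.71. Most of its 16 h difference of -2.05 ± 0.17 was thus present at 4 h. That difference was -1.03 under normexp. Morrbid, which controls the lifespan of myeloid cells, has 2 probes that were both within 2-fold at 16 h. One of them, NR_028591.1, was higher by 1.30 at 4 h and was back within 0.13 of the 0 h level at 16 h, while the other, NR_028589.1, was at 0.69 at 16 h.

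Among 12 tested probes of transcripts that host microRNAs or small nucleolar RNAs, 0 were higher (9.15% over all tested noncoding probes), 3 were lower (12.0%) and the median was -0.42, against 0.07 over all. Beside Lncppara these were Snhg18 and Cep83os. Snhg18, a small nucleolar RNA host gene, had levels of -3.60, -4.39, -5.71 and -7.23, each array below the one before it. At 8 h and 16 h it was not well above background, which makes it at least 2.74-fold lower at 16 h. Cep83os, antisense to the centriole gene Cep83, was at -4.36, -3.96, -5.28 and -5.83 and at least 1.62-fold lower. Under normexp Snhg18 and Cep83os were within 2-fold, at -0.52 and -0.08. The brighter hosts stayed within 2-fold at 16 h. Snhg8, Snhg5 and Snhg9 had differences of 0.07, -0.02 and 0.22, and Snhg3, Snhg7 and Snhg16 had -0.69, -0.75 and -0.47. The microRNA host Mir22hg was at -0.12. Dleu2, a dim host with a 0 h level of -3.64 near that of Snhg18, was also within 2-fold at 16 h, at -0.37.

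In the list of genes linked to growth and to the tumour suppressor p53, 1 of 9 tested probes was higher and 1 was lower, near the 9.15% and 12.0% of all tested noncoding probes. Trp53cor1, also known as lincRNA-p21, is a p53 target transcribed beside Cdkn1a, which codes for a cell cycle inhibitor. The level of Trp53cor1 was 1.39, 0.84, 1.24 and 2.52 at 0, 4, 8 and 16 h. Its 16 h array stood above the other 3, by 1.13 ± 0.14 against 0 h, and both spots gave more than 1. Norad, a cytoplasmic lncRNA that is induced by DNA damage and binds Pumilio proteins, was at 3.89, 3.58, 3.69 and 2.89. The 16 h array was the low one, with a difference of -1.003 ± 0.14, and its 2 spots gave -1.10 and -0.91. Lncpint, another p53 target, was at 0.37 and Hotair at -0.75, both within 2-fold.

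Of 5 tested probes for imprinted transcripts 0 were higher and 1, Peg13, was lower, again beside 9.15% and 12.0% over all tested noncoding probes. Peg13 is expressed from the paternal allele within Trappc9, and had levels of -2.38, -3.17, -2.90 and -4.24. Its 16 h difference was -1.85 ± 0.20, and its spots gave -1.86 and -1.84, but under normexp it was -0.76, within 2-fold. Meg3, Airn, Nctc1 and Kcnq1ot1 had 16 h differences of 0.32, 0.57, 0.36 and -0.05. Airn was lower than at 0 h by 1.29 at 8 h alone. Of 4 tested probes in the list of X-linked or nuclear transcripts 0 were higher and 2 were lower (9.15% and 12.0% over all). These were Firre and Norad, but Norad lies on chromosome 2 and is cytoplasmic, so only Firre belongs to that class. Ftx was at -0.78. Both tested structural RNAs, Rpph1 and Scarna13, were within 2-fold. Among the tested probes, those of Firre, Norad, Lncppara, Meg3, Mir22hg, Snhg5 and Dleu2 stand in more than 1 of these lists. Of the 10 transcripts the study names that were looked for, Pldi and Firre had a probe with a RefSeq accession here, and the other 8 are not reported.

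**Figure D4:**
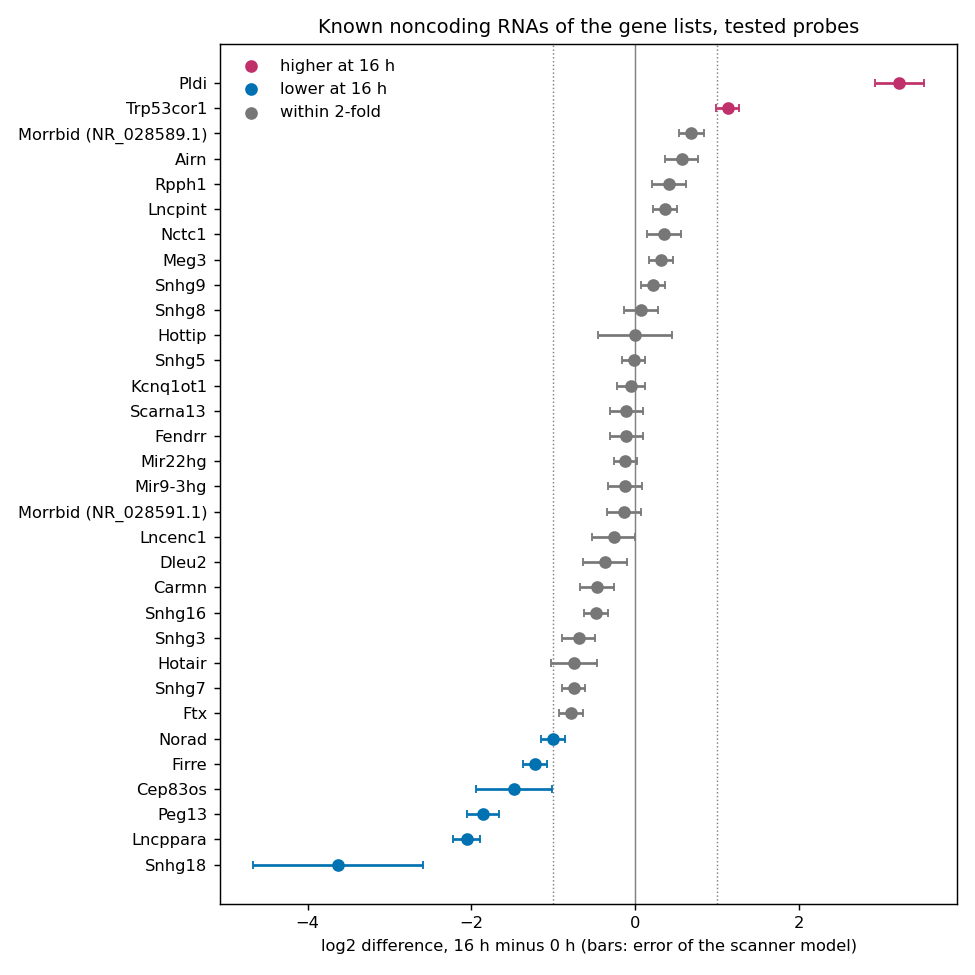
Log2 difference between 16 h and 0 h (horizontal axis) for each tested probe of the lists of known noncoding RNAs, sorted by value, with bars for the error of the scanner model and dotted lines at 2-fold. Pldi and Trp53cor1 lie above the upper limit, and Norad, Firre, Cep83os, Peg13, Lncppara and Snhg18 below the lower one. The values of Cep83os and Snhg18 are measured differences and not bounds.

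By the type given in the RefSeq table, 429 of the tested probes were lncRNAs, of which 41 (9.56%) were higher and 54 (12.6%) lower at 16 h. Of 107 transcribed pseudogenes 9 (8.41%) were higher and 10 (9.35%) lower. These shares are near the 9.15% and 12.0% of all tested noncoding probes. Both tested transcripts of the type misc_RNA, Slfn10-ps and 4930451G09Rik, were higher. Noncoding transcripts of protein-coding genes gave 1 higher probe of 33, for Vmn2r29, and 3 lower ones, for Ubxn10, Rp2 and Cep41. Of 36 probes whose gene symbol ends in os, the mark of an opposite-strand transcript, 2 were higher, Sox5os3 and Rab11fip4os1, and 7 (19.4%) were lower. The lower ones lie opposite to Fam120a, Smc2, Cep83, Hk1, Zeb2, Rbfa and Prkag2. That class was formed after the values were seen.

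A nearest protein-coding gene was found beside 53 higher and 67 lower probes. None of the 120 lay beside one of 91 inflammatory or 60 interferon-response genes, where 1 of 575 tested noncoding probes (0.174%) and 0 of 575 did. These counts hold for the listed genes only. The lists do not include Slfn8, the Schlafen gene next to Slfn10-ps, or Ptger4 next to 5430437J10Rik. Trp53cor1 beside Cdkn1a was the 1 pair with a gene of the cell cycle list, and also the 1 such pair among all 575 tested noncoding probes (0.174%). The expression of the neighbours themselves was not analysed here.

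Promoters were found for 36 of 53 higher and 43 of 66 lower genes, giving 40 and 50 promoters with alternative starts. The AP-1 motif TGANTCA was present in 12.5% of the higher and 8.0% of the lower promoters, and in 8.93% of those of all tested noncoding probes and 7.81% of all 32851 promoters in the table. The NF-kB decamer was found in 5.0% and 8.0%, beside 9.43% and 8.46%. For the ISRE, written as GAAA, any 2 bases and GAAA, the shares were 2.5% and 2.0% beside 4.47% and 3.44%, and the promoter of 1700112J05Rik shown above was the 1 higher promoter with it. The STAT motif TTCNNNGAA gave 5.0% and 2.0% beside 7.69% and 8.3%, and the promoter of 4930579K19Rik holds it at bases 142 to 150. The E-box CACGTG was in 10.0% and 12.0%, beside 8.44% and 7.15%, and the promoter of Firre is one of those that hold it. The motifs of CRE, TGACGTCA, and PU.1, GAGGAAGT, were each in 5.0% of the higher promoters and in 4.0% and 2.0% of the lower ones. For CRE the share was 3.47% among promoters of all tested noncoding probes and 1.79% over all promoters, and for PU.1 3.72% and 3.2%. The 2 E2F motifs, TTTCCCGC and TTTGGCGC, were in 5.0% of the higher and 0.0% of the lower promoters, beside 2.23% and 1.56%. With 40 and 50 promoters, 1 promoter is 2.5% or 2.0%, so these shares differ from the background by a few promoters at most.

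Another probe of the same gene was on the array for 19 of the 127 probes, from 18 genes, and 13 of these other probes passed the filter. In 6 pairs both probes were past 2-fold in the same direction. The second probe of Rnf227 gave -4.55 beside -3.24, that of Crnde -3.51 beside -2.21, that of 2610203C22Rik -1.52 beside -1.79 and that of 1300002E11Rik 2.19 beside 1.47. The other 2 pairs are the probes of D130020L05Rik set against each other. In 3 pairs, for Hk1os, D630024D03Rik and 4732471J01Rik, the second probe had the same sign within 2-fold, with -0.74, -0.41 and -0.49. In the remaining 4 it had the opposite sign. The second probe of 2700099C18Rik was at 0.21 where the first gave -3.01, and those of Gm10069, 1700086L19Rik and 8430429K09Rik were at -0.40, -0.25 and 0.07. The second probes may lie on other transcripts of the gene, and which part of a transcript each one binds was not tested.

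**Figure D5:**
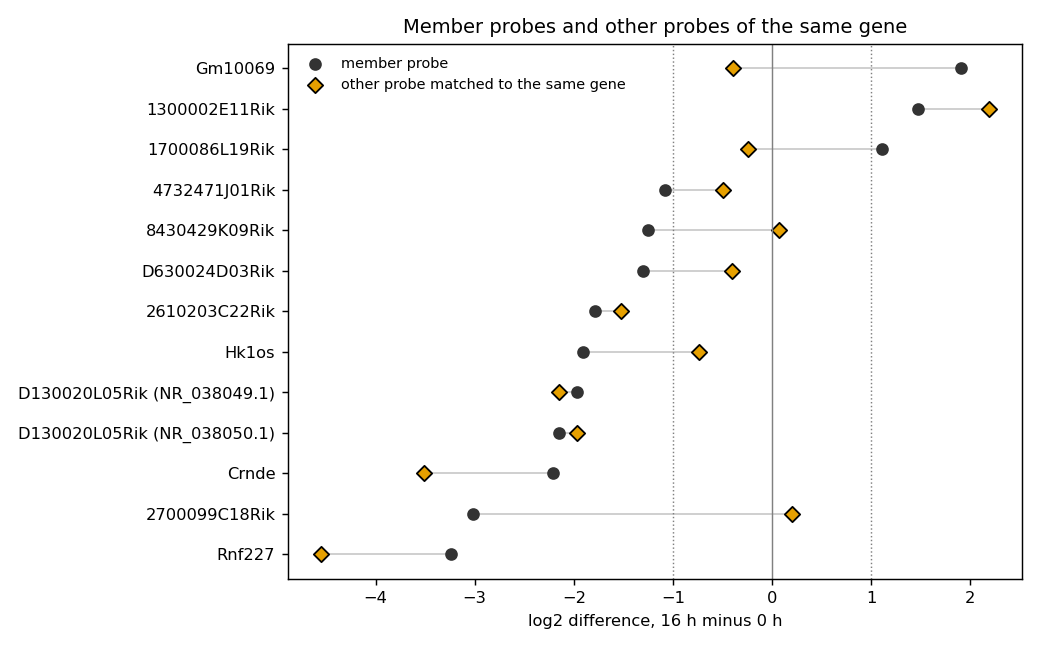
Log2 difference between 16 h and 0 h (horizontal axis) of 13 probes (circles) and of the other probe matched to the same gene (diamonds), 1 row per pair, with dotted lines at 2-fold. In 6 rows both symbols lie past 2-fold on the same side, and in 4 rows they lie on opposite sides of 0.

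Dim signal touches both groups. The median intensity of the higher probes was 36.0 at 0 h and 114 at 16 h, and that of the lower ones was 106 at 0 h and 25.8 at 16 h. Of the 22 higher probes with 2 spots, 19 were past 2-fold on both, and 21 had both spots on the same side of 0, the exception being NR_036629.1. Of the 34 lower probes with 2 spots, 25 were past 2-fold on both and all 34 had both spots on the same side. In the value table that the authors deposited, 45 of the higher and 71 of the lower probes are listed, and all of these are past 2-fold there too. That table was made from the same 4 scans and is no second measurement.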

How the data were processed

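RNA of RAW264.7 cells at 0, 4, 8 and 16 h with ODN1826 was measured on 4 Agilent 1-colour arrays. The authors used Agilent Feature Extraction to make the deposited intensity values, and its version is 11.5.1.1 in the file headers and 10.7 in the labels. The authors also deposited log2 values for 71505 probes, which equal the averaged log2 spots minus a constant per array (9.05, 8.98, 8.95 and 8.78), with medians of -1.22, -1.23, -1.23 and -1.26. The sources used here do not give how those probes were chosen.

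For each probe, log2 intensities were averaged over its spots, and each array was centred on its own 75th percentile. Control spots were left out, and so were outlier spots (79 to 420 of 175906 spots per array) unless all spots of a probe were marked. No spot was saturated. The probes taken were those of RefSeq noncoding accessions (873 probes, 5 of them left out in advance). The members, the gene lists and the motifs were chosen with earlier results of these data known. Where no spot was well above background on the dim array, the fold is a bound. It is taken against the dimmest probe well above background on that array, or against the probe's own level where that was higher. The bounds hold for the scanner's background correction and not for normexp. Named probes are the 8 highest and 8 lowest of those above background at 0 h and 16 h, the 4 largest bounds and the 2 largest steps from 4 h to 8 h in each direction, those of the lists, those past 2-fold the opposite way at 4 h, and the 2 on each side of the limits. Other names are marked as chosen after their values were seen or stand in counts.

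With 1 array per time point no test was possible, and precision is limited by the number of arrays. Alternatives were normexp background correction with an offset of 50, run on median spot and background intensities, quantile normalization, a percentile taken over the probes above background on all arrays, other filters on dim probes, outlier spots kept, the deposited values, a limit of 1.96 times the scanner error and a 4-fold limit. The procedure was tested on simulated data. Accessions were matched to the RefSeq table of GRCm38.p6, used for names, neighbours and promoters. The array headers name another build, so no other coordinates are given. Python 3.11.15, numpy 2.4.6, pandas 2.3.3, matplotlib 3.10.9, R 4.3.3 and limma 3.58.1 were used.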

Additional observations from a re-analysis of the deposited data

Results flagged for a closer look

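A930011G23Rik was higher by 1.18 on the log2 scale at 4 h and measured -1.37 at 16 h, both against the same 0 h array. At 16 h it was not well above background, its level there was at least 1.20-fold lower, and normexp gave 0.035. Whether the 2 differ was not tested.

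Outside the 127 probes, 15 noncoding RefSeq probes were well above background at 4 h or 8 h and not at 0 h and 16 h, and 9 of these had a measured difference past 2-fold there. By the bound against 0 h, 3 of the 9 were past 2-fold, Gm20125, 1700012H19Rik and 1700017L05Rik, and 6 were not. They were picked out after their values were seen. Gm20125, next to Cited2, had levels of -6.52, -2.88, -6.01 and -5.61 at 0, 4, 8 and 16 h and was at least 5.59-fold higher at 4 h than at 0 h. 1700012H19Rik, next to Sox9, had levels of -7.68, -3.73, -4.52 and -7.11 and was at least 3.10-fold higher at 4 h. The high arrays of the first were 4 h alone and of the second 4 h and 8 h. None of the 9 is listed in the deposited value table.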

How the results depend on the processing

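With normexp, which shrinks differences of dim probes by its construction, 24 probes were higher and 23 lower at 16 h, in place of 55 and 72, so that the surplus of lower probes was not kept. Of the probes higher or lower under normexp, 6 and 4 were past 2-fold at 4 h, 10 and 12 at 8 h, and 19 each stepped the same way from 4 h to 8 h. Over all probes 3538 were higher and 3832 lower. All 55 higher and 68 of the 72 lower probes kept their sign. Serpina3h and A930011G23Rik turned, to 0.068 and 0.035, and the values of 30 other named probes moved by more than the scanner error. Of 36 named probes, 15 were no longer past 2-fold, namely these 2, 1810019D21Rik, 1700012D16Rik, Gm10069, 3930402G23Rik, 1700025N23Rik, A330069E16Rik, Firre, Cep83os, Peg13, D130020L05Rik, Prkag2os1, D930048N14Rik and Snhg18.

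With the filter at both 0 h and 16 h, 44 probes were lower, of which 7 were past 2-fold at 4 h and 21 at 8 h, and 37 stepped down from 4 h to 8 h. A 4-fold limit on the measured 16 h difference left 15 higher and 23 lower probes. Of these, 9 and 6 were past 2-fold at 4 h, 15 and 19 at 8 h, and 13 and 21 stepped the same way, with 1708 and 2351 over all probes. Under the other alternatives all 10 counts stayed within 1.5 times. No paired analysis was possible because each time point has 1 array. Signal over background limits 39 of the 127 differences, which have a bound or none.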
